A study of Rattus norvegicus with 6 samples.

Results

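The integrated stress response ends in a small set of transcription factors and brakes, and 10 of their genes were followed here in rat H9c2 cells: Atf4, Ddit3, Atf3, Atf5, Cebpb, Cebpg, Trib3, Nupr1, Chac1 and Sesn2. They were taken by name from the deposited count table, which held all 10 among 26126 entries, and all 10 passed the filter on low counts together with 14478 other entries. H9c2 is a line derived from embryonic rat heart, and every library came from cells put through simulated ischemia and reperfusion. The control group, 3 libraries, carried a control adenovirus, and the adPERK group, 3 libraries, carried an adenovirus for PERK, which the series describes as overexpression. Both groups had been grown with 10% serum and then held in a buffer of pH 6.2 with 5.6 mM 2-deoxyglucose under 95% nitrogen and 5% carbon dioxide, first flushed for 30 min and then sealed for 1.5 to 3.5 h. The labels give no library without ischemia, so the levels below cannot be set against unstressed cells. The labels do not say whether the replicates were separate cultures, and p-values therefore rest only on library-to-library spread, part of which may be technical.

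PERK, the product of Eif2ak3, is a kinase of the endoplasmic reticulum membrane that phosphorylates the initiation factor eIF2 alpha when folding capacity is exceeded. General translation then slows, while the Atf4 message, whose upstream reading frames normally hold it back, is translated better. ATF4 pairs with other basic leucine zipper proteins, among them members of the C/EBP family, and switches on genes for amino acid supply as well as further regulators such as CHOP, ATF3 and TRIB3. Because ATF4 is controlled largely at the step of translation, its mRNA level does not measure its protein.

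Total counts were between 77923398 and 119087414 per library. Levels are given in CPM, counts scaled to a common library total by the TMM method. Eif2ak3 itself had values of 26.4, 26.9 and 24.0 CPM with the control virus (replicates 1 to 3) and 26.5, 26.5 and 25.9 CPM with the PERK virus (replicates 1 to 3), so it was not higher in the group labelled adPERK. Its log2 fold change of 0.03 had an SE of 0.06 and an edgeR adjusted p of 0.887, and whether these counts would catch the viral transgene was not tested. All directions below rest on the labels alone. Control replicate 3 had 19287 entries above 0, against 15377 to 16685 in the other libraries. The first principal component of log2 CPM held 25.5% of the variance over all tested entries. On it control replicates 1 to 3 lay at -16.7, 49.7 and -62.5, and adPERK replicates 1 to 3 at 11.6, 13 and 4.92. This axis thus spread the control libraries and did not separate the groups. Of 9 tested markers of myoblasts and muscle 1 was lower and 0 were higher. It was Myog, the gene of the differentiation factor myogenin, which fell from 474, 491 and 493 CPM in control to 390, 408 and 401 CPM in adPERK libraries (log2 fold change -0.28, SE 0.03, edgeR adjusted p = 0.0137). Its call ended without any 1 library other than control replicate 1, with edgeR adjusted p between 0.0586 and 0.0683. Myod1, another myogenic factor gene, was at 73.7 to 88.3 CPM over both groups, which overlapped. Vim, the most abundant of these markers, was at 1673, 1672 and 1615 CPM in control and 1842, 1938 and 1868 CPM in adPERK libraries. All its adPERK values were higher (log2 fold change 0.19, SE 0.03, edgeR adjusted p = 0.0677). Cdh15, the next most abundant, overlapped between the groups (log2 fold change 0.06). Of 7 heart muscle markers 3 were tested and 0 passed, and their summed level was 2.66 to 4.53 CPM in control and 4.40 to 5.55 CPM in adPERK libraries. Most of it was the cardiac factor gene Gata4, at 2.53, 3.47 and 4.11 CPM in control and 4.28, 4.15 and 4.79 CPM in adPERK libraries, all higher (log2 fold change 0.39, SE 0.19, edgeR adjusted p = 0.482). Nppa and Nppb had 0 counts in all 6 libraries and Myh6 had 14 counts in 1 library. Of the markers of other cell types with an entry, 1 of 6 for endothelium, 3 of 8 for leukocytes and 3 of 7 for epithelium passed the low-count filter. The listed markers Pecam1 and Itgam had no entry under those names, which says nothing of their level. The summed level of the tested markers was 1.30 to 1.56 CPM in control and 0.638 to 0.878 CPM in adPERK libraries for endothelium. It was 8.25 to 12.1 and 9.98 to 11.0 CPM for leukocytes, and 48.6 to 52.8 and 53.1 to 54.2 CPM for epithelium, where Krt8 made up most of it and Epcam was at 0 in 5 libraries. The part of any of these markers, Myog and Gata4 included, in the results below was not tested.

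None of the 10 regulators passed the test (edgeR quasi-likelihood, Benjamini-Hochberg adjusted p under 0.05 over 14488 entries), where 0.421% of all tested entries did. Atf3, Chac1, Trib3 and Atf4 nevertheless had every adPERK library above every control library, with fold differences of 1.81, 1.25, 1.18 and 1.10. Groups that did not overlap, with adPERK higher, were found for 9.66% of all tested entries. The same 4 genes, and no other regulator, had an unadjusted p under 0.05 with adPERK higher, as did 5.94% of tested entries. The other 6 regulators overlapped between the groups, and their fold differences lay between 0.949 for Cebpg and 1.10 for Cebpb. The median log2 fold change over the 10 genes was 0.10, against -0.0045 over all tested entries. In bulk RNA such as this, a change in the number of responding cells and a change per cell cannot be told apart.

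**Figure D1:**
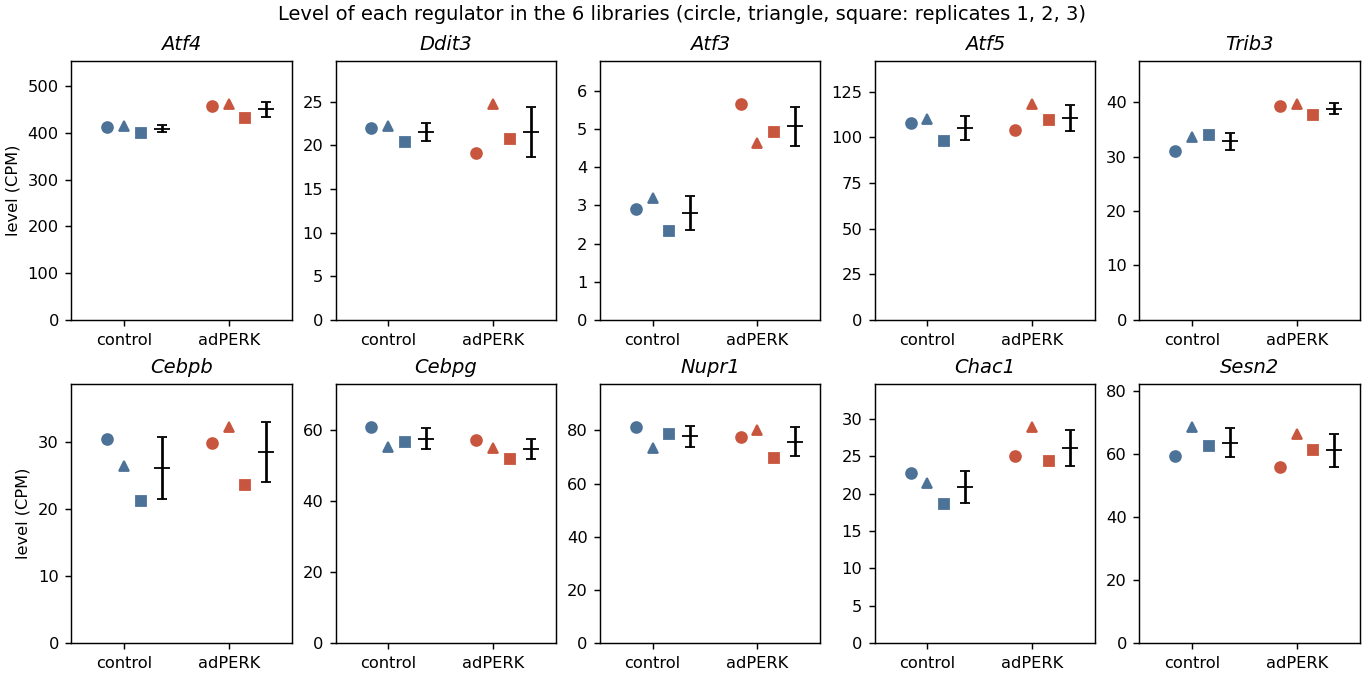
Level of each of the 10 regulators in CPM (vertical axis, from 0) in the 3 control (blue) and 3 adPERK (red) libraries, with replicates 1, 2 and 3 as circle, triangle and square and the mean ± SD in black. Atf4, Atf3, Trib3 and Chac1 show adPERK points that all lie above the control points, and the other 6 genes overlap.

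Atf4, the central activator, had 413, 414 and 399.7 CPM in the control libraries (replicates 1 to 3) and 458, 461 and 432 CPM in the adPERK libraries. The lowest adPERK library thus lay above the highest control library. The group means were 409 ± 7.95 and 450 ± 15.8 CPM (SD, n = 3), a difference of 10.2%. The log2 fold change of 0.14 (SE 0.04, 95% interval 0.06 to 0.22) had an unadjusted p of 0.00391 and an edgeR adjusted p of 0.19, and it ranked 298 of 14488 by p. Atf4 was among the least variable of the 10 genes within a group, with a coefficient of variation of 1.94% in control and 3.52% in adPERK libraries.

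Ddit3 encodes CHOP, a factor that is induced downstream of ATF4 and promotes cell death when stress lasts. Its level was 22.0, 22.2 and 20.4 CPM in the control libraries and 19.1, 24.7 and 20.7 CPM in the adPERK libraries. Both the lowest and the highest value belonged to the adPERK group, replicates 1 and 2. The means were 21.5 ± 0.997 and 21.5 ± 2.89 CPM (SD, n = 3), and the fold difference was 0.999 with a 95% interval from 0.857 to 1.165 (edgeR adjusted p = 0.998). Differences smaller than these bounds, in either direction, could not be resolved with 3 libraries a group. Ddit3 overlaps the methionyl-tRNA synthetase gene Mars1 and a locus with no gene name in the RefSeq annotation of GRCr8. The sources used here do not say whether counting used strand, so reads from the shared stretch cannot be assigned with certainty.

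Atf3, a stress-induced factor of the ATF family that often acts as a repressor, differed more than any other of the 10 genes and also had the lowest counts. It had 322, 263 and 181 counts in control replicates 1 to 3 and 558, 556 and 440 in adPERK replicates 1 to 3. In CPM these were 2.91, 3.18 and 2.32 against 5.65, 4.65 and 4.92, so the groups were separated by a gap wider than the spread within the control group. The mean went from 2.81 ± 0.439 in control to 5.07 ± 0.519 CPM in adPERK libraries (SD, n = 3). The fold difference was 1.81 (95% interval 1.41 to 2.32), and the log2 fold change of 0.85 (SE 0.16) ranked 116 of 14488 by p (unadjusted p = 5.9e-04). The Atf3 gene overlaps Garin4 in RefSeq, with the same limit on strand as for Ddit3. With an edgeR adjusted p of 0.0737 Atf3 missed the threshold of 0.05. Control replicate 3 had the lowest value, and without it the log2 fold change was 0.74 (edgeR adjusted p = 0.18).

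Whether Atf3 was called turned on the tool. The robust form of the edgeR fit called it with an adjusted p of 0.0356, and no other of the 10 genes, at 0.911% of entries called. The authors' deposited table gives Atf3 a log2 fold change of 0.86 with an adjusted p of 1.6e-05, the only one of the 10 under 0.05 there, where 2.27% of entries with an adjusted p are under it. DESeq2 gave Atf3 no adjusted p because its filter on the mean count removed the gene, and it called Atf4 (adjusted p = 0.00597), Trib3 (0.0159) and Chac1 (0.0478), at 4.04% of entries called. Without that filter, an alternative chosen after seeing the data, DESeq2 called Atf3 (0.00191), Atf4 (0.00829) and Trib3 (0.022) but not Chac1 (0.066), at 2.52% of entries called. In these fits the log2 fold change of Atf3 stayed between 0.85 and 0.86. Over the 15 alternatives that gave Atf3 an adjusted p, it ran from 0.00191 to 0.248, and for Atf4, Trib3 and Chac1 the highest over 16 alternatives was 0.466, 0.331 and 0.524.

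**Figure D2:**
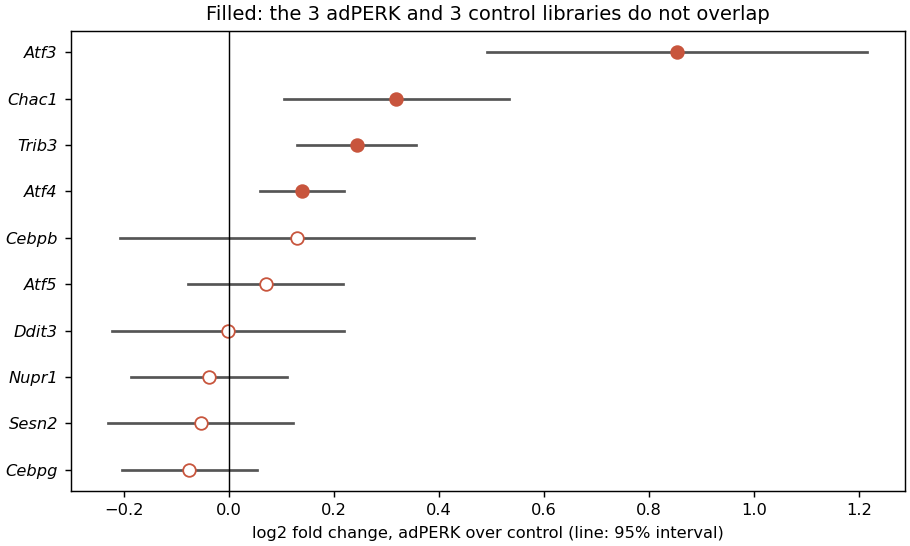
Log2 fold change of each regulator, adPERK over control (horizontal axis), with its 95% interval from the edgeR fit, and filled points for genes whose groups do not overlap. The intervals of Atf3, Chac1, Trib3 and Atf4 lie above 0, none of the 4 passed after adjustment over all entries, and those of the other 6 genes include 0.

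**Figure D3:**
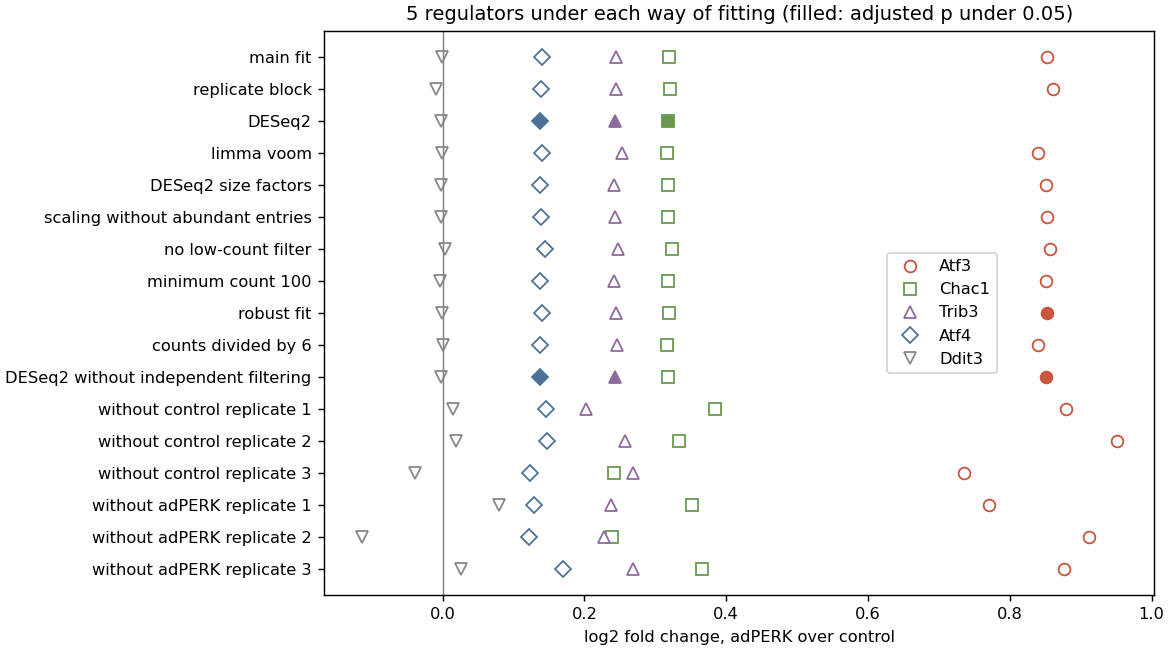
Log2 fold change (horizontal axis) of Atf3, Chac1, Trib3, Atf4 and Ddit3 under each way of fitting (rows), filled where the adjusted p was under 0.05. Atf3 stayed between 0.74 and 0.95, Ddit3 lay on either side of 0, and filled points appear only with DESeq2 and the robust fit; DESeq2 gave Atf3 no adjusted p and hence no point in that row.

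The partner factors of ATF4 overlapped between the groups. Atf5, a relative of Atf4 with a similar translational control, stood at 108, 109.9 and 97.9 CPM in control and 104, 118 and 109.6 CPM in adPERK libraries (log2 fold change 0.07, SE 0.06, edgeR adjusted p = 0.743). Its gene overlaps Nup62 and Il4i1 in RefSeq, with the same limit on strand as for Ddit3. Cebpb, which encodes a C/EBP factor active in inflammation and differentiation, was at 30.4, 26.4 and 21.2 CPM in control and 29.8, 32.2 and 23.6 CPM in adPERK libraries. Replicate 3 was the lowest of each group for Cebpb, and the coefficient of variation was 17.8% in control and 15.6% in adPERK libraries, the widest of the 10 genes in both groups. Its fold difference of 1.10 had an interval from 0.867 to 1.38. Cebpg, a C/EBP protein without an activation domain that forms dimers with ATF4, was at 60.9, 55.3 and 56.8 CPM in control and 57.4, 55.0 and 52.0 CPM in adPERK libraries. For Cebpg the fold difference came to 0.949 (95% interval 0.868 to 1.04, edgeR adjusted p = 0.671).

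Trib3 and Chac1 are induced through ATF4, Trib3 encoding a pseudokinase that restrains AKT and ATF4 itself and Chac1 an enzyme that degrades glutathione. Trib3 was at 31.0, 33.5 and 33.9 CPM in control and 39.2, 39.6 and 37.6 CPM in adPERK libraries. Every adPERK value was higher, and the means of 32.8 ± 1.61 and 38.8 ± 1.08 CPM (SD, n = 3) gave a log2 fold change of 0.24 (SE 0.05, edgeR adjusted p = 0.112). Chac1 was at 22.8, 21.4 and 18.6 CPM in control and 25.0, 28.9 and 24.4 CPM in adPERK libraries. Its groups were likewise separate, but adPERK replicate 2 stood apart from the other adPERK libraries. The log2 fold change of Chac1 was 0.32 (SE 0.09, edgeR adjusted p = 0.237), 0.24 without adPERK replicate 2 and 0.24 without control replicate 3.

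Nupr1 and Sesn2 overlapped between the groups. Sesn2 encodes sestrin 2, which senses leucine and lowers mTORC1 activity, and stood at 59.5, 68.6 and 62.7 CPM in control and 56.0, 66.5 and 61.4 CPM in adPERK libraries. Its fold difference was 0.964 (95% interval 0.853 to 1.09), and its gene overlaps a noncoding RNA gene in RefSeq. Nupr1, a small chromatin protein induced by stress, was at 81.2, 73.3 and 78.6 CPM in control and 77.4, 80.2 and 69.6 CPM in adPERK libraries (log2 fold change -0.04, SE 0.06, edgeR adjusted p = 0.876). The count table also lists Nupr1l1, a name that RefSeq gives as a synonym of Nupr1. Nupr1 had 1015 to 1137 counts for every 1000 counts of Nupr1l1 in each library, so the entries may share reads and the level of Nupr1 is uncertain.

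Start regions from RefSeq (GRCr8), 250 bases before to 50 after the annotated start, were given for 9 of the 10 genes. Stretches are shown for the 5 genes whose window held a motif, because ATF4 acts on its targets through a composite element with C/EBP, written here as TGATGNAA and searched on both strands. It was present in 3 of the 9 windows, those of Chac1, Trib3 and Nupr1, and in 3.98% of all 33469 windows. Of these 3 genes, Chac1 and Trib3 were higher in every adPERK library, and the Nupr1 values overlapped. Among other ATF4 targets listed for comparison, 6 of 34 windows held it. Sequences read 5′ to 3′ on the strand of the gene, and the capitals mark the match, which reads on the opposite strand in all 3.
Chac1: cttctccgccgTTGCATCActcctgctagg
Trib3: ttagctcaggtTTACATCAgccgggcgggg
Nupr1: aaaaggccagaTTGCATCAgacagggcttg
The Chac1 stretch is chr3:126795953-126795982 on the plus strand, with the match 167 to 160 bases before the start. The Trib3 stretch is chr3:161275536-161275565 on the minus strand, with the match 21 to 14 bases before the start, and the Nupr1 stretch is chr1:190645938-190645967 on the minus strand, with the match 55 to 48 bases before the start. The AP-1 motif TGANTCA, which reads the same way on both strands and is bound by FOS and JUN proteins, was present in the windows of Ddit3 and Atf5 and in 7.33% of all windows.
Ddit3: gcgcgcgcaTGACTCActcacctcctc
Atf5: tcaagcagcttTGACTCAaccccacccac
The Ddit3 stretch is chr7:65001445-65001471 on the plus strand, with the match 241 to 235 bases before the start, and the Atf5 stretch is chr1:104434916-104434944 on the minus strand, with the match 138 to 132 bases before the start. The cyclic AMP response element TGACGTCA was in none of the 9 windows (1.83% of all). A match is a run of letters, and binding was not measured here.

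Levels of the regulators relative to Atf4 within a library do not depend on the scaling between libraries. For every 1000 counts of Atf4 there were 7.04, 7.69 and 5.81 counts of Atf3 in control replicates 1 to 3 and 12.3, 10.1 and 11.4 in adPERK replicates 1 to 3. Atf3 was thus higher against Atf4 too, in 3 of 3 adPERK libraries. The ratio of Cebpg went the other way, with 148, 134 and 142 counts per 1000 of Atf4 in control. In adPERK libraries it was 125, 119 and 120, again without overlap. The level of Cebpg itself overlapped (log2 fold change -0.08, edgeR adjusted p = 0.671), and that of Atf4 was higher (0.14). A lower ratio therefore does not by itself mean less Cebpg. How many entries have a separate ratio to Atf4 was not counted. Ddit3 had 53.3, 53.7 and 51.0 counts per 1000 of Atf4 in control and 41.7, 53.6 and 48.0 in adPERK libraries, which overlap. Trib3 had 74.9, 80.9 and 84.9 in control and 85.7, 85.9 and 87.0 in adPERK libraries, so it barely separated once Atf4 was taken into account. Chac1 overlapped, at 46.5 to 55.1 in control and 54.5 to 62.6 in adPERK libraries. In the exact two-sided permutation test of 3 against 3 libraries, the ratios of Atf3, Cebpg and Trib3 to Atf4 each gave p = 0.1, which is the smallest value the design allows (adjusted p = 0.167 over 10 ratios computed). Set against Ddit3 in place of Atf4, Atf3 had 132, 143 and 114 counts per 1000 in control and 296, 188 and 237 in adPERK libraries.

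**Figure D4:**
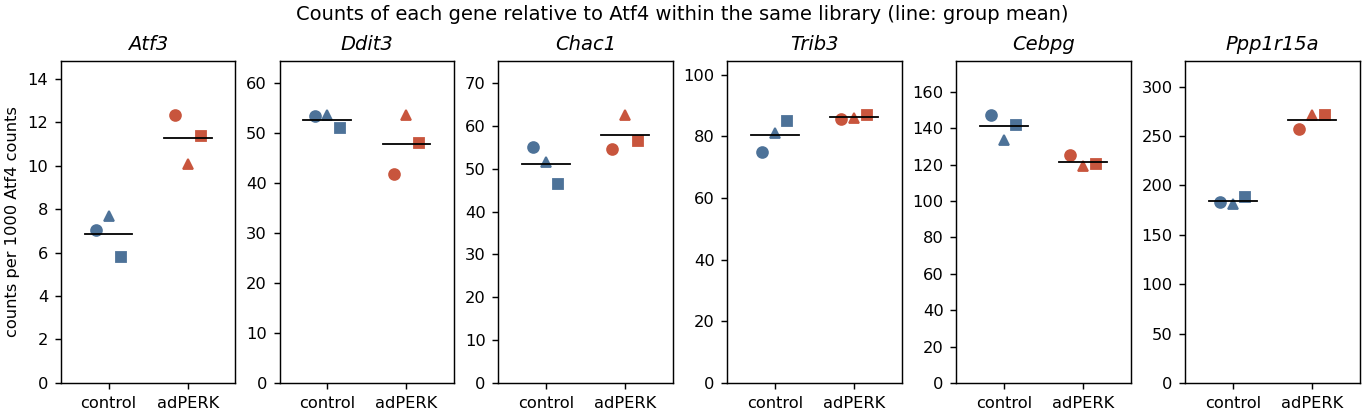
Counts of 6 genes per 1000 counts of Atf4 in the same library (vertical axis, from 0), for control (blue) and adPERK (red) libraries, with lines at the group means. Atf3 and Ppp1r15a lie higher and Cebpg lower in all 3 adPERK libraries, Trib3 separates narrowly, and Ddit3 and Chac1 overlap.

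Upstream of the regulators, a list held eIF2 kinases, genes that undo eIF2 alpha phosphorylation, Eif2s1, Eif2b1 to Eif2b5, Nck1, Dnajc3 and Impact. Its 16 genes were all tested. Of these 1 was higher and 0 were lower (median log2 fold change 0.04). The gene was Ppp1r15a, whose product GADD34 brings a phosphatase to eIF2 alpha and which is itself a target of ATF4 and CHOP. Ppp1r15a rose from 75.8, 75.2 and 75.4 CPM to 117.6, 125.2 and 117.2 CPM (log2 fold change 0.67, SE 0.04, edgeR adjusted p = 0.00204). Per 1000 counts of Atf4 it had 182 to 189 counts in control and 257 to 272 in adPERK libraries. The most abundant genes of the list, Ppp1ca, a catalytic subunit of that phosphatase, and Eif2s1, which encodes eIF2 alpha, had log2 fold changes of 0.03 and 0.01. A further list held mitochondrial and endoplasmic reticulum stress genes, many of them chaperone genes. Of its 14 names 11 had an entry, and 0 of these 11 tested genes passed (median 0.05). The most abundant, the chaperone genes Calr and Hsp90b1, were at log2 fold changes of 0.03 and 0.01. Hspa5, another chaperone gene, was higher in every adPERK library (log2 fold change 0.15, edgeR adjusted p = 0.198), as were 9.66% of all tested entries. It was the only 1 of the 11 with separate groups, and was chosen after its values were seen.

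Relatives, by family name or by leucine zipper fold, of the ATF and C/EBP genes among the 10 regulators formed a pair of lists. Of 16 tested ATF, CREB and C/EBP genes 0 passed in either direction (median log2 fold change -0.01), and the most abundant, Atf6 and Cebpz, were at 0.06 and 0.06. Of 17 tested AP-1 and other zipper factors 1 was higher and 0 were lower (median 0.18). It was Fos, an immediate early gene, which rose from 15.0, 11.8 and 12.1 CPM to 29.9, 29.8 and 31.1 CPM (log2 fold change 1.22, SE 0.09, edgeR adjusted p = 0.00322). The AP-1 relatives Fosb and Junb had log2 fold changes of 1.09 and 0.36 with edgeR adjusted p of 0.0828 and 0.21, and both were chosen after their values were seen. Nfe2l1 and Nfe2l2, the most abundant of the list and regulators of proteasome and antioxidant genes, were at -0.02 and -0.04. Atf3 is induced by many of the signals that induce Fos, and for every 1000 counts of Fos there were 192 to 270 counts of Atf3 in control and 156 to 189 in adPERK libraries. The ratio of Atf3 to Fos was therefore lower in all 3 adPERK libraries (exact permutation p = 0.1, the smallest possible, adjusted p = 0.167).

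The targets of the regulators were counted in 3 lists. Of 20 tested ATF4 targets that supply amino acids 0 passed (median log2 fold change 0.10), and 17 lay above 0, as did 48.7% of all tested entries. The most abundant, the amino acid transporter genes Slc38a2 and Slc7a5, had log2 fold changes of 0.05 and 0.22 (edgeR adjusted p = 0.582 and 0.12). Of 28 other tested ATF4 targets 1 was higher and 0 were lower (median 0.10), and 26 lay above 0. That gene was Stc2, encoding the secreted glycoprotein stanniocalcin 2, which rose from 31.5, 31.5 and 31.2 CPM to 45.3, 41.6 and 39.5 CPM (log2 fold change 0.42, SE 0.05, edgeR adjusted p = 0.0217). Its call ended without any 1 library other than adPERK replicate 3, with edgeR adjusted p between 0.074 and 0.108. The most abundant of that list, the tRNA synthetase genes Eprs and Aars, were at log2 fold changes of 0.15 and 0.06. Groups did not overlap, with adPERK higher, for 8 of the 20 and 14 of the 28 ATF4 targets, against 9.66% of all tested entries. An unadjusted edgeR p under 0.05 with adPERK higher was found for 8 and 11 of them, against 5.94% of all. By either measure 0 of these targets were lower, and the lists were not tested as sets. Of 10 tested CHOP targets 1 was higher, again Ppp1r15a, and 0 were lower (median -0.0052). This list was not sorted by whether CHOP raises or lowers each gene, so its median has no expected direction. The most abundant, Ddr1 and Wars, were at -0.05 and 0.05. Bcl2l11, which encodes the death-promoting protein BIM, was at 11.8, 8.35 and 12.8 CPM in control and 7.15, 8.15 and 6.60 CPM in adPERK libraries, with every adPERK value lower (log2 fold change -0.59, edgeR adjusted p = 0.225). Groups that did not overlap, with adPERK lower, were found for 8.55% of all tested entries. Bcl2l11 was chosen after its values were seen.

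**Figure D5:**
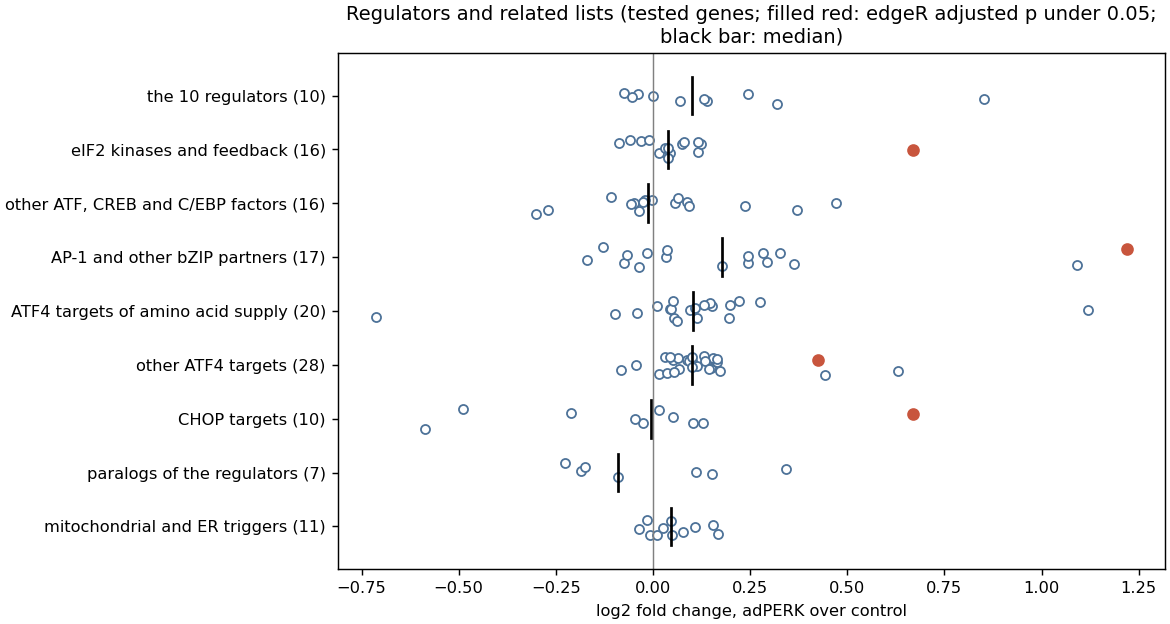
Log2 fold change (horizontal axis) of each tested gene in the 10 regulators and 8 related lists (rows, number tested in brackets), with a black bar at the median and filled red points at an edgeR adjusted p under 0.05. Filled points are Ppp1r15a, in the lists of eIF2 kinases with feedback and of CHOP targets, Fos among AP-1 factors and Stc2 among other ATF4 targets. No regulator is filled.

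Close relatives of the regulators were counted as a list of 7, all tested, of which 0 passed (median log2 fold change -0.09). The most abundant, Nupr1l1 and Sesn3, were at log2 fold changes of -0.09 and -0.17. RefSeq gives Nupr1l1 as a synonym of Nupr1, so this entry may be Nupr1 itself and not a relative. The median of the list is the value of that entry. Sesn3, which encodes another sestrin, was at 36.6, 36.5 and 36.7 CPM in control and 33.8, 31.3 and 32.1 CPM in adPERK libraries (edgeR adjusted p = 0.19). Its values were thus all lower in adPERK libraries, as for 8.55% of all tested entries, whereas those of Sesn2 overlapped.

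The profile of Atf4 over the 6 libraries was closest to those of Eif4e, Creld2 and Vps11 among 8998 named genes of at least 5 CPM. The root mean square difference of log2 CPM, each gene centred on its mean, was 0.0149, 0.0168 and 0.0188, against a median of 0.11 over those genes. Eif4e, which encodes the cap-binding translation factor, was at 79.2, 80.5 and 79.2 CPM in control and 88.5, 89.4 and 84.7 CPM in adPERK libraries. The profile of Ddit3 was closest to Mrpl43, Atp13a2 and Bag3, with differences of 0.0223, 0.0434 and 0.0437 against a median of 0.143. Mrpl43, a mitochondrial ribosomal protein gene, was at 20.2, 20.2 and 18.8 CPM in control and at 17.9, 22.0 and 19.1 CPM in adPERK libraries. As for Ddit3, both its lowest and its highest value belonged to adPERK replicates 1 and 2. These nearest profiles are a description over 6 libraries, with no test.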

How the data were processed

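RNA from 6 H9c2 libraries was sequenced after library construction with a TruSeq kit from 1 ug of total RNA, per the labels' protocols. The authors' deposited table gives whole-number counts per gene, used here as deposited. Bowtie 0.12.2 and the mouse build mm9 are named in the submitters' processing notes, while the entries carry rat names. The sources used here do not name the counting program. Low counts gathered near multiples of 6: 449 to 986 entries a library had 6 or 7 counts and 155 to 439 had 8 or 9, so fewer independent fragments may stand behind a count. The deposited normalized signal and score columns were not used. The authors' deposited log2 fold changes and p-values are quoted only where named. A second table has 6 columns of values whose names match no label and was not used. Transcript lengths were not used, so CPM ranks genes by their counts, and "most abundant" means the most counts and not the most transcripts.

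Counts were tested in edgeR 4.0.16 (R 4.3.3) with TMM scaling, filterByExpr (minimum count 10), a quasi-likelihood fit on group alone and Benjamini-Hochberg adjustment over 14488 entries. Standard errors and 95% intervals were derived from each fold change and its F value. DESeq2 1.42.0 and limma 3.58.1 voom were alternatives. The steps were also run on simulated counts, drawn independently and without the gathering near multiples of 6. That run therefore does not measure error rates for the deposited counts. The labels do not pair same-numbered libraries, and their deviations from the group means correlated little over all tested entries. That correlation cannot exclude replicate effects on single genes. The members and lists were chosen with earlier results of these data known. Named genes are the 10 members, Eif2ak3, each list's genes past the threshold and its 2 most abundant, and the 3 nearest profiles of Atf4 and Ddit3. Others are said to be chosen after their values were seen, except for cell type markers, some of which are named outside this rule. Sequences are from RefSeq (GRCr8), matched by symbol for 9 of 10 members, and gene overlaps were read from the RefSeq table of that assembly.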

Additional observations from a re-analysis of the deposited data

How the results depend on the processing

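DESeq2 without independent filtering was chosen after seeing the data. The 61 entries changed became 9 with a replicate block, 392 with DESeq2, 365 with DESeq2 without independent filtering, 110 with limma voom, 94 without a low-count filter, 132 with the robust fit, 93 with counts divided by 6, and 12 to 38 with 1 library left out. The block treats same-numbered libraries as pairs, but their deviations from the group means correlated at -0.0631, 0.0114 and 0.029, and under it 0 regulators passed. The count of regulators that passed, 0, became 3 with DESeq2, 3 without its independent filtering and 1 with the robust fit, and was 0 in the other alternatives run. DESeq2 moved Atf4 (log2 fold change 0.1378), Trib3 (0.2424) and Chac1 (0.3175) past the threshold, its form without independent filtering Atf4 (0.1378), Trib3 (0.2424) and Atf3 (0.8508), and the robust fit Atf3 (0.8531). With 1 library left out the log2 fold change was 0.12 to 0.17 for Atf4, 0.74 to 0.95 for Atf3, 0.20 to 0.27 for Trib3 and 0.24 to 0.38 for Chac1. The sign of Ddit3, at -0.0012, turned without a low-count filter (0.0029) and with counts divided by 6 (0.00031), and its range with 1 library left out was -0.11 to 0.079. The sign also turned for Nupr1 without adPERK replicate 3 (0.021; range -0.081 to 0.021), for Sesn2 without control replicate 2 or adPERK replicate 1 (0.0024 and 0.0095; range -0.12 to 0.0095) and for Eif2ak3 without control replicate 3 (-0.020; range -0.020 to 0.060). The causes were not tested.

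Counts of list members past the threshold moved as follows. With DESeq2, and without its independent filtering, AP-1 factors went from 1 to 3 and 4. ATF4 targets of amino acid supply went from 0 to 5 and 4, and other ATF4 targets from 1 to 4 and 4. CHOP targets went from 1 to 2 and 2, and the mitochondrial and endoplasmic reticulum stress genes from 0 to 1 and 1. The robust fit gave 2, 2 and 3 for AP-1 factors, amino acid supply and other ATF4 targets. The other ATF4 targets were also 0 with the replicate block, 3 with limma voom, 2 with a minimum count of 100, 2 with counts divided by 6, and 0 to 1 with 1 library left out. Ppp1r15a and Fos passed in all 16 alternatives. With the replicate block Myog missed the threshold (log2 fold change -0.2824, edgeR adjusted p = 0.0567). Atf3, at 181 to 558 counts, has the least depth of the regulators.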
